A study of Mus musculus with 12 samples.

Results

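The canonical histone genes were described here as a set: every row of the deposited gene table whose symbol starts with H1f, H2ac, H2bc, H3c or H4c and a number (or with an older Hist cluster name), leaving out names that end in -ps. The rule found 70 of 56980 genes, with 11 for the linker histone H1, 18 for H2A, 17 for H2B, 12 for H3 and 12 for H4. A count was recorded for 66 of them in at least 1 library, and 63 passed the filter on low counts (8 H1, 16 H2A, 16 H2B, 11 H3 and 12 H4 genes), within 20411 genes tested.

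Histones are the proteins around which DNA is wound. H2A, H2B, H3 and H4 form the core of the nucleosome, and H1 binds the DNA where it enters and leaves that core. Most of their genes lie in clusters and are transcribed during S phase, when new chromatin has to be packed, and their messenger RNAs end in a conserved stem-loop in place of a poly(A) tail. The stem-loop binding protein SLBP guides the processing and translation of these messengers. A few genes, among them H1f0, make polyadenylated messengers outside S phase. In T cells, expansion after antigen contact is the setting in which these genes are best known.

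The 12 libraries came from CD8+ cells sorted out of tumours grown in wild type C57BL/6J mice. The tumours were Panc02, a mouse pancreatic cancer line, or Panc02 made to express Flt3L, a growth factor of dendritic cells. The sort kept cells negative for DAPI, a dye that enters dead cells, and positive for CD45.2 and CD8, and split them by asialo-GM1 (asGM1), a surface glycosphingolipid. The 4 groups of 3 libraries were asGM1-negative and asGM1-positive cells of Panc02 tumours and asGM1-negative and asGM1-positive cells of Flt3L Panc02 tumours. No T cell receptor marker is named for the sort, and whether replicates were separate mice is not labelled, so p-values measure the spread between these samples only. The labels give no age of the mice.

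The members were first placed by their sequence, because it bears on how they can be counted. Of the 70 gene models (GENCODE M21, on GRCm38), 41 held a histone stem-loop of the form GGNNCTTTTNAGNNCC (searched on the transcript strand), in 4 H1, 10 H2A, 9 H2B, 8 H3 and 10 H4 genes. The same letters were in 124 of 141767 transcripts, or 0.0875%. These models are on another build than the mm39 build of the deposited table. The stem-loop forms are printed because they separate the H4 genes from the others, with the 4-base loop in capitals and the paired stem bases in lower case.
24 members of H1, H2A, H2B and H3: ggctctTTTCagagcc
6 members of H1, H2B and H3: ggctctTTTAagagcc
1 H2A member, H2ac20: ggctctTTTTagagcc
6 H4 members: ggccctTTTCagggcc
2 H4 members, H4c9 and H4c14: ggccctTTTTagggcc
2 H4 members, H4c2 and H4c11: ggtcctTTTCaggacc

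All 10 of the H4 genes with a stem-loop had one of the last 3 forms, and no gene of another type did. Of the 41 models with a stem-loop, 10 went on past it to the polyadenylation signal AATAAA. Another 8 models had no stem-loop and carried AATAAA within their last 100 bases, among them H1f0 and H2bc21. The remaining models without a stem-loop had no AATAAA there either, and a model can end before its messenger does. The named library kits are TruSeq mRNA and SMARTer for ultra low input. Both usually start from poly(A) tails, so messengers that end in a stem-loop may be captured only in part, which was not tested.

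Many members are near-identical copies. The median member shared 51.9% of its 50-base stretches with the transcripts of another gene (0% for H1, 82.3% for H2A, 49.7% for H2B, 62% for H3 and 40% for H4). H2ac24 shared 93.1%, H2bc11 59.4%, H4c4 10.2% and H1f0 5.68%. No source used here says how the counting divided reads among such copies, so the values of single H2A genes in particular are uncertain.

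Chromosome 13 held 55 of the 70 genes, chromosome 3 held 10, chromosomes 15 and 6 held 2 each and chromosome 11 held 1 (GRCm38). Promoter windows of 300 bases, from 250 before to 50 after the start of the gene, were found for 63 members in RefSeq (GRCm38.p6). On both strands together, the CCAAT box was in 52 of the 63 windows (82.5%), against 37.4% of all 32851 promoters in that table. It was in every H2A (17 of 17), H2B (14 of 14) and H3 (10 of 10) window and in 3 of 11 H4 windows. TATAAA was in 34 of 63 (54%, against 13.6%), and the octamer ATTTGCAT was in 12 (19%, against 1.74%), 6 of them H2A and 6 H2B. None of these motifs contains another, and a match is a description of the window only. In 9 places an H2A and an H2B gene start back to back and their windows overlap by 220 to 279 bases. Windows are printed here because the results below turn on these genes: a window shared by a divergent pair, the H2B gene with the lowest adjusted p, an H4 gene with little shared sequence, and the H1 gene that differed between tumour types. Capitals mark any of these 3 motifs on either strand.
H2ac12 (chr13:22035594-22035893, minus strand, divergent from H2bc12): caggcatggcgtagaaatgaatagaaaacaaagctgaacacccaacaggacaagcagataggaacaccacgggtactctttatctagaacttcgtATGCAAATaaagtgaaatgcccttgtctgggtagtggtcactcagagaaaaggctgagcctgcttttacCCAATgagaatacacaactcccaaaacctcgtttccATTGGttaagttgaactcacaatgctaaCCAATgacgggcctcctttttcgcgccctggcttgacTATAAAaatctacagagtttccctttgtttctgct
H2bc11 (chr13:22042948-22043247, plus strand, divergent from H2ac11): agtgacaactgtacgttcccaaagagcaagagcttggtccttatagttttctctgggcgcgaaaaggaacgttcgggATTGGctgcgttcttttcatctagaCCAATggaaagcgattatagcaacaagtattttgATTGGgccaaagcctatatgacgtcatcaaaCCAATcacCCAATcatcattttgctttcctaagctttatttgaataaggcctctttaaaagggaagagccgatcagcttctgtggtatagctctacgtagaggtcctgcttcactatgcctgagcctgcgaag
H4c4 (chr13:23581318-23581617, plus strand): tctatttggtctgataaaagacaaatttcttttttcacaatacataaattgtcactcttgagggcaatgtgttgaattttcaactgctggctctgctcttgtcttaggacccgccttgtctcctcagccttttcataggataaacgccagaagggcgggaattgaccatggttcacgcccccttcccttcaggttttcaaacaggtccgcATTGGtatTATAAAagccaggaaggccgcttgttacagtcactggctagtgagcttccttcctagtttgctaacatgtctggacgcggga
H1f0 (chr15:79027962-79028261, plus strand): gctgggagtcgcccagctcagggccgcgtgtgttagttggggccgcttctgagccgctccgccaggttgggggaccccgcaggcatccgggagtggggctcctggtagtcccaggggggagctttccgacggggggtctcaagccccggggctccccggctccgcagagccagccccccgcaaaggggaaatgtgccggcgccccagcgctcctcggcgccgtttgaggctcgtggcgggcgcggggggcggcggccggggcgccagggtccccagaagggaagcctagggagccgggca

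H2ac12 and H2bc12 share a window with 1 octamer, 3 CCAAT boxes and 1 TATAAA on the H2A side. The H2bc11 window held 5 CCAAT boxes and neither of the other motifs, H4c4 held 1 CCAAT box and TATAAA, and the window of H1f0 held none of the 3.

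Library totals lay between 98663008 and 102896605 estimated counts, and about 2.71 counts were worth 1 sequenced fragment. A floor of 3 fragments was 0.0803 CPM (counts in every 1000000 counts of a library, scaled by TMM factors). CD8-sorted libraries carried T cell transcripts throughout, with the summed level of 8 T cell markers between 9237 and 15850 CPM. Markers of plasmacytoid dendritic cells (pDC) were also present. Their 10-gene sum was 470.6 to 489.3 CPM in asGM1-negative cells, against 272.3 to 291.8 CPM in asGM1-positive cells of Panc02 tumours, and 1085 to 1205 against 305.1 to 330.2 CPM in Flt3L Panc02 tumours. Of those 10 genes, 7 were lower in asGM1-positive cells in either tumour type (edgeR, adjusted p under 0.05). Of all genes 0.843% were lower in Panc02 and 5.83% in Flt3L Panc02 tumours. The median log2 fold change of the 10 was -4.53 in Panc02 and -5.77 in Flt3L Panc02 tumours. Log2 ratios of the sums were only -0.75 and -1.83, so the sums understate the fall of the typical marker. None of the 10 was at 0 in all libraries. For the histone genes, asGM1-negative replicate 1 of Flt3L Panc02 tumours stood above the other 2 of its group, so results that rest on it are given with and without it.

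The summed level of the 70 histone genes was lowest in asGM1-negative cells of Flt3L Panc02 tumours. In that group the sums were 692.5, 398.7 and 430 CPM for replicates 1 to 3, against 990.1, 719.5 and 1083 CPM in asGM1-positive cells of the same tumour type. In Panc02 tumours the sums were 721.7, 810 and 953.8 CPM in asGM1-negative cells, against 880.6, 833.5 and 1143 CPM in asGM1-positive cells. The Flt3L Panc02 gates did not overlap, although the highest asGM1-negative library lay close to the lowest asGM1-positive one, and the Panc02 gates did. The group means were 828.5 ± 117 (SD, n = 3) and 952.5 ± 167 CPM in Panc02, and 507.1 ± 161 and 930.7 ± 189 CPM in Flt3L Panc02, asGM1-negative cells first. The log2 ratio of asGM1-positive to asGM1-negative means was 0.20 in Panc02 and 0.88 in Flt3L Panc02, or 1.17 without asGM1-negative replicate 1. In bulk samples, fewer cells that make a transcript and less of it per cell cannot be told apart.

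**Figure D1:**
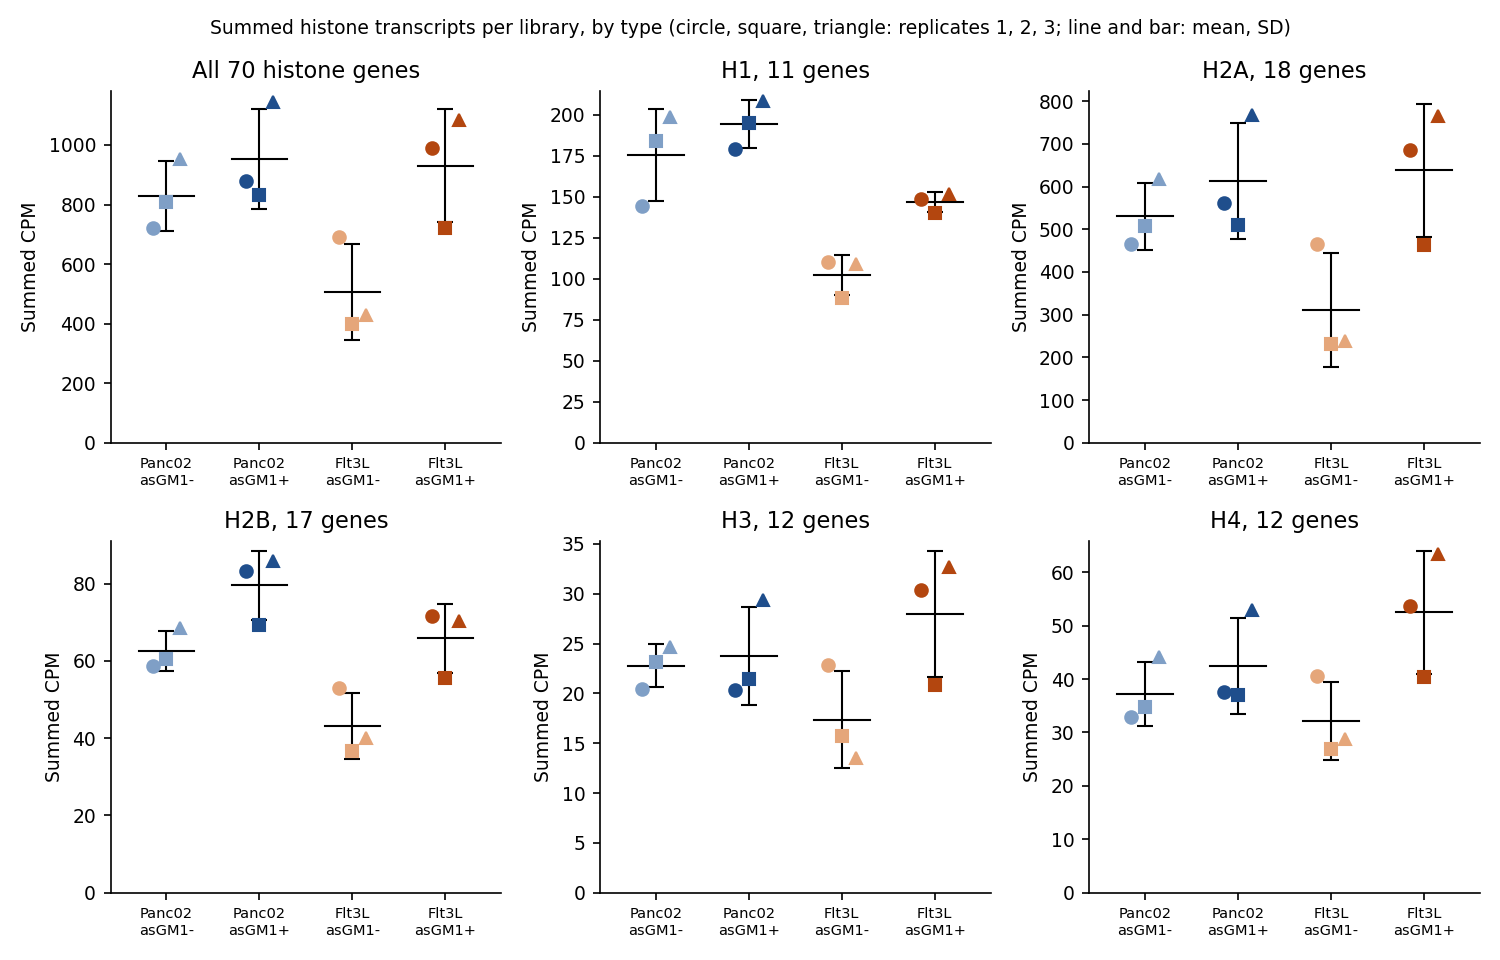
Summed CPM of all 70 histone genes and of each type, 1 symbol per library and group means with SD (n = 3). In each panel the asGM1-negative group of Flt3L Panc02 tumours has the lowest mean, and its replicate 1 (circle) is the highest of its group.

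H2A genes made up 55.5 to 70.6% of the summed CPM (not per length) in the 12 libraries. Their sum was 465.9, 231.1 and 238.7 CPM in asGM1-negative cells, against 685.5, 462.8 and 764.6 CPM in asGM1-positive cells of Flt3L Panc02 tumours. Replicate 1 of the former thus lay just above replicate 2 of the latter, and the groups overlapped at that point alone. The log2 ratio of the group means was 1.03 for H2A, 0.71 for H4, 0.69 for H3, 0.61 for H2B and 0.52 for H1. In Panc02 tumours the same ratios were 0.21, 0.19, 0.06, 0.35 and 0.14. The H1 sum did not overlap between the Flt3L Panc02 gates, with 88.16 to 110.3 CPM in asGM1-negative cells, against 139.9 to 151.7 CPM in asGM1-positive cells.

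Per kilobase of exon, H2ac24 had the highest mean level of the 70 genes (393 CPM per kb), followed by H2ac23 (229) and H2ac14 (104). H2ac12 stood at 91.8, H1f0 at 45.1, H2bc11 at 28.3, H1f2 at 20.6, H4c4 at 14.3 and H3c1 at 10.1 CPM per kb. H2ac24 and H2ac23 together supplied 30.6 to 40.6% of the summed CPM. At the other end, 19 of 70 genes averaged under 1 CPM. The 7 genes left out by the filter were H1f9, H1f7, H3c13 and H2bc18, with no count in any library, H2ac1 and H1f6, which did not exceed 0.0311 CPM, and H2ac19, seen at 0.46 CPM in asGM1-positive replicate 3 of Panc02 and in no other library. H1f6, H1f7, H1f9 and H2ac1 are known from the male germ line. H2ac18, known as a near-identical copy of H2ac19, ranged from 0.163 to 8.71 CPM with no order by group. These last genes were chosen after their values were seen.

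**Figure D2:**
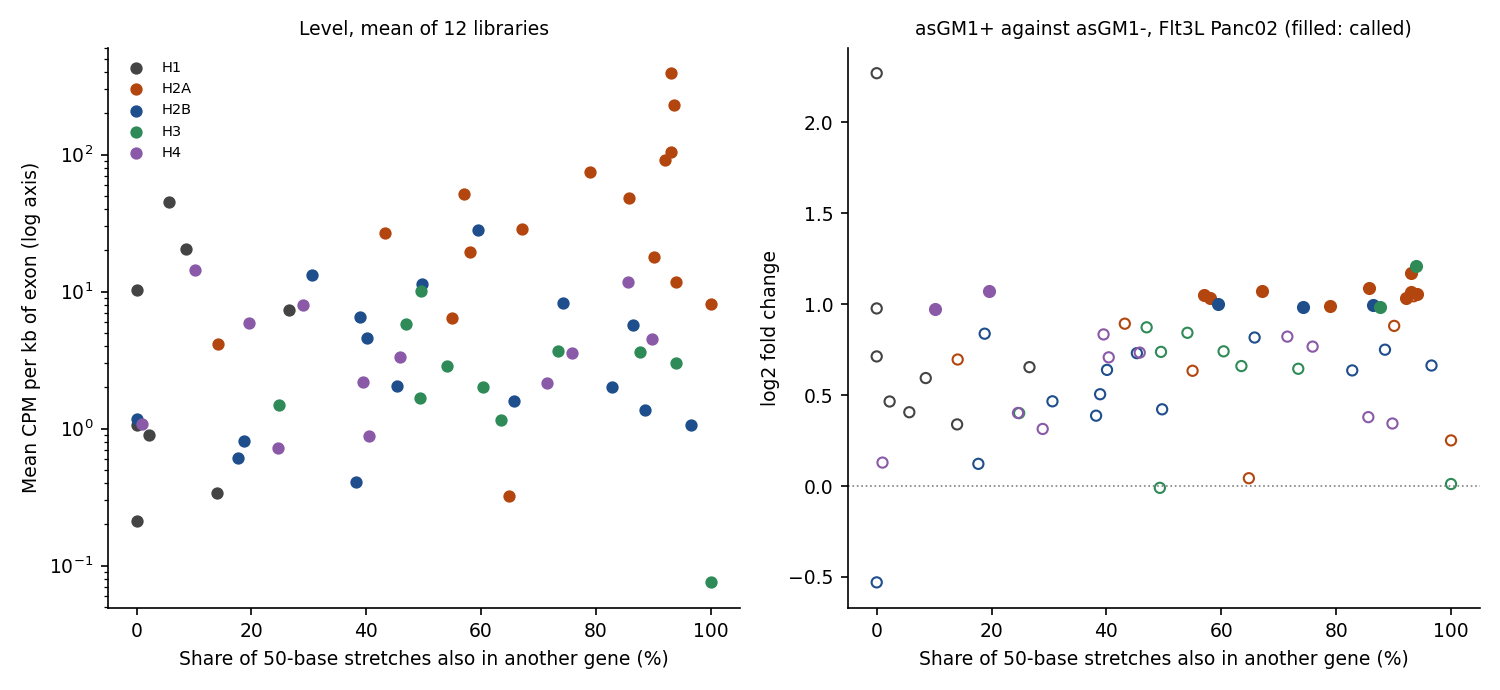
Each point is 1 histone gene: share of its 50-base stretches found in another gene's transcripts (x) against its mean level in CPM per kb, on a log axis (left), and against the log2 fold change of asGM1-positive over asGM1-negative cells in Flt3L Panc02 tumours (right, filled where edgeR's adjusted p is under 0.05). The highest H2A genes lie at about 93% shared sequence, and called genes lie at 10.2 to 94% shared sequence.

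The comparison of gates in Flt3L Panc02 tumours asked how CD8+ cells with surface asGM1 differ from those without. In asGM1-positive cells 16 of 63 tested histone genes were higher and 0 lower (edgeR quasi-likelihood test, Benjamini-Hochberg adjusted p under 0.05). Of all genes tested 2.77% were called higher and 5.83% lower. The 16 were 9 of 16 H2A genes (H2ac24, H2ac12, H2ac14, H2ac11, H2ac15, H2ac22, H2ac7, H2ac4 and H2ac10), 3 of 16 H2B genes (H2bc11, H2bc12 and H2bc15), 2 of 11 H3 genes (H3c10 and H3c11), 2 of 12 H4 genes (H4c4 and H4c3) and 0 of 8 H1 genes. Their log2 fold changes lay between 0.98 and 1.21 and their adjusted p-values between 0.0107 and 0.0478. Over all 63 members the median log2 fold change was 0.73, against -0.01 for all genes, and it was 1.03 for the 16 H2A genes. The log2 fold change was above 0 in 61 of 63 members and in 48.9% of all genes, and the 3 libraries of each gate did not overlap for 27 members, all higher (11.4% of all genes). An unadjusted p under 0.05 was reached by 39 members, 61.9% of them, against 25.4% of all genes. Of the 63 members, 32 shared at least 50% of their 50-base stretches with another gene, and 14 of the 16 calls lay among them. Such members may draw on the same reads. Counts of members, here and in the comparisons below, are therefore not counts of separate measurements.

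**Figure D3:**
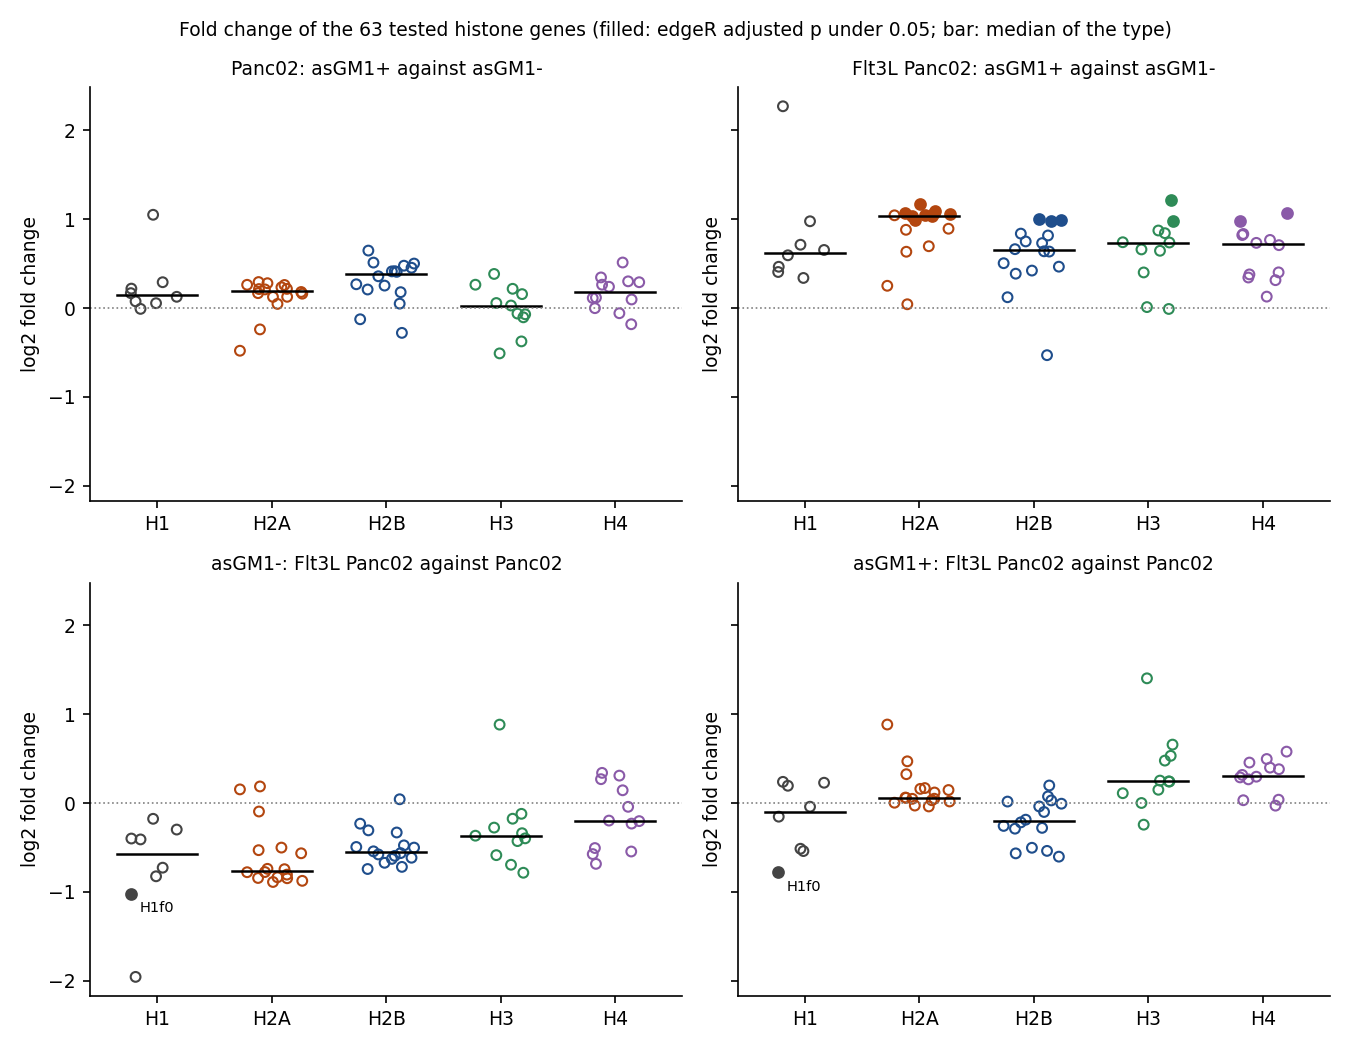
log2 fold change of the 63 tested histone genes by type in the 4 comparisons (circles, filled where edgeR's adjusted p is under 0.05, with the median of each type as a bar). Filled points appear above 0 in the Flt3L Panc02 gate comparison (16 genes) and below 0 at H1f0 in both tumour comparisons, and the outlying H1 point is H1f8, at 0 to 0.432 CPM in all libraries.

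H2bc11, an H2B gene, had the lowest adjusted p of the members. It stood at 10.1, 6.93 and 6.8 CPM in asGM1-negative cells, against 16.2, 12.9 and 18.6 CPM in asGM1-positive cells of Flt3L Panc02 tumours. Every asGM1-positive library was above every asGM1-negative one. The log2 fold change was 1.0 ± 0.20 (SE; edgeR adjusted p = 0.0107). Without asGM1-negative replicate 2 it was 0.91 with an adjusted p of 0.0515, and it stayed called in the other 5 runs that left out 1 library. In Panc02 tumours the gene stood at 11.8, 12.1 and 12.9 CPM in asGM1-negative cells, against 15.1, 14.3 and 19.6 CPM in asGM1-positive cells, again without overlap, but it was not called there (log2 fold change 0.41 ± 0.20, edgeR adjusted p = 0.516).

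H2ac14, an H2A gene that shares most of its sequence with other copies, had a log2 fold change of 1.17 ± 0.26 in Flt3L Panc02 tumours (edgeR adjusted p = 0.0182). Its levels were 28.8, 16.1 and 16.9 CPM in asGM1-negative cells, against 50.2, 34.2 and 55 CPM in asGM1-positive cells. The gates did not overlap, and asGM1-negative replicate 1 was nearest to the other gate. Without that library the log2 fold change was 1.5 (adjusted p = 0.00603). The call ended without asGM1-negative replicate 2 (adjusted p = 0.0782) or 3 (0.0694) and without asGM1-positive replicate 1 (0.0534) or 3 (0.0659). In Panc02 tumours H2ac14 lay at 32.5, 37.9 and 44 CPM in asGM1-negative cells, against 38.1, 33.9 and 52.9 CPM in asGM1-positive cells, which overlap.

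H2ac24 and H2ac23 had the highest mean CPM of the members. H2ac24 stood at 169, 77.8 and 84 CPM in asGM1-negative cells, against 252, 165 and 278 CPM in asGM1-positive cells of Flt3L Panc02 tumours. Here the gates overlapped, since asGM1-negative replicate 1 exceeded asGM1-positive replicate 2, and the log2 fold change was 1.07 ± 0.29 (edgeR adjusted p = 0.0446). H2ac23 had a fold change of nearly the same size that was not called (1.04 ± 0.31, adjusted p = 0.057), and was called without asGM1-negative replicate 1 (adjusted p = 0.00672) or asGM1-positive replicate 2. H2ac22 (1.09 ± 0.27, adjusted p = 0.0292) and H2ac7 (1.07 ± 0.27, adjusted p = 0.0307) did not overlap between these gates.

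The divergent pair H2ac12 and H2bc12, whose shared window was printed, was called on both sides. H2ac12 stood at 30.6, 17.4 and 18.1 CPM in asGM1-negative cells, against 49.6, 32.7 and 53.3 CPM in asGM1-positive cells (log2 fold change 1.03 ± 0.24, edgeR adjusted p = 0.0252). H2bc12 stood at 2.84, 2.38 and 2.27 against 5.41, 4.08 and 5.32 CPM (0.98 ± 0.23, adjusted p = 0.0251). Neither gene overlapped between the gates. H2ac12 shared 92.1% and H2bc12 74.2% of their 50-base stretches with another gene. How reads of such copies were divided is not known, so these values may not belong to this pair alone. The 9 divergent pairs are those found among the 63 members with a promoter window, and pairs with other members could not be found. Of these 9, 3 had both genes called higher (the others were H2ac11 with H2bc11 and H2ac15 with H2bc15). In 2 the H2A gene alone was called (H2ac22 and H2ac7), and 4 had neither. One gene of the last 4 pairs, H2ac1, was not tested.

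H4c4 and H4c3 were the called members with the least shared sequence (10.2 and 19.6%). H4c4 stood at 14.5, 7.33 and 10.3 CPM in asGM1-negative cells, against 19.8, 16.7 and 26.9 CPM in asGM1-positive cells, without overlap (log2 fold change 0.98 ± 0.26, edgeR adjusted p = 0.041). That call ended without asGM1-negative replicate 2 (adjusted p = 0.137) or 3 (0.111) and without asGM1-positive replicate 1 (0.0765) or 3 (0.142). Among members under 50% shared sequence 2 of 31 were called and 29 had a log2 fold change above 0, with a median of 0.64. Among those at or above 50% shared, 14 of 32 were called and 32 were above 0, with a median of 0.86. With a stem-loop in the model 8 of 39 were called (median 0.70), and without one 8 of 24 (median 0.83). Of all genes 2.77% were called higher in this comparison. The 8 called models without a stem-loop were 352 to 411 bases long, and none had AATAAA in its last 100 bases. A model can end before the stem-loop, so this split does not separate stem-loop from polyadenylated messengers.

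**Figure D4:**
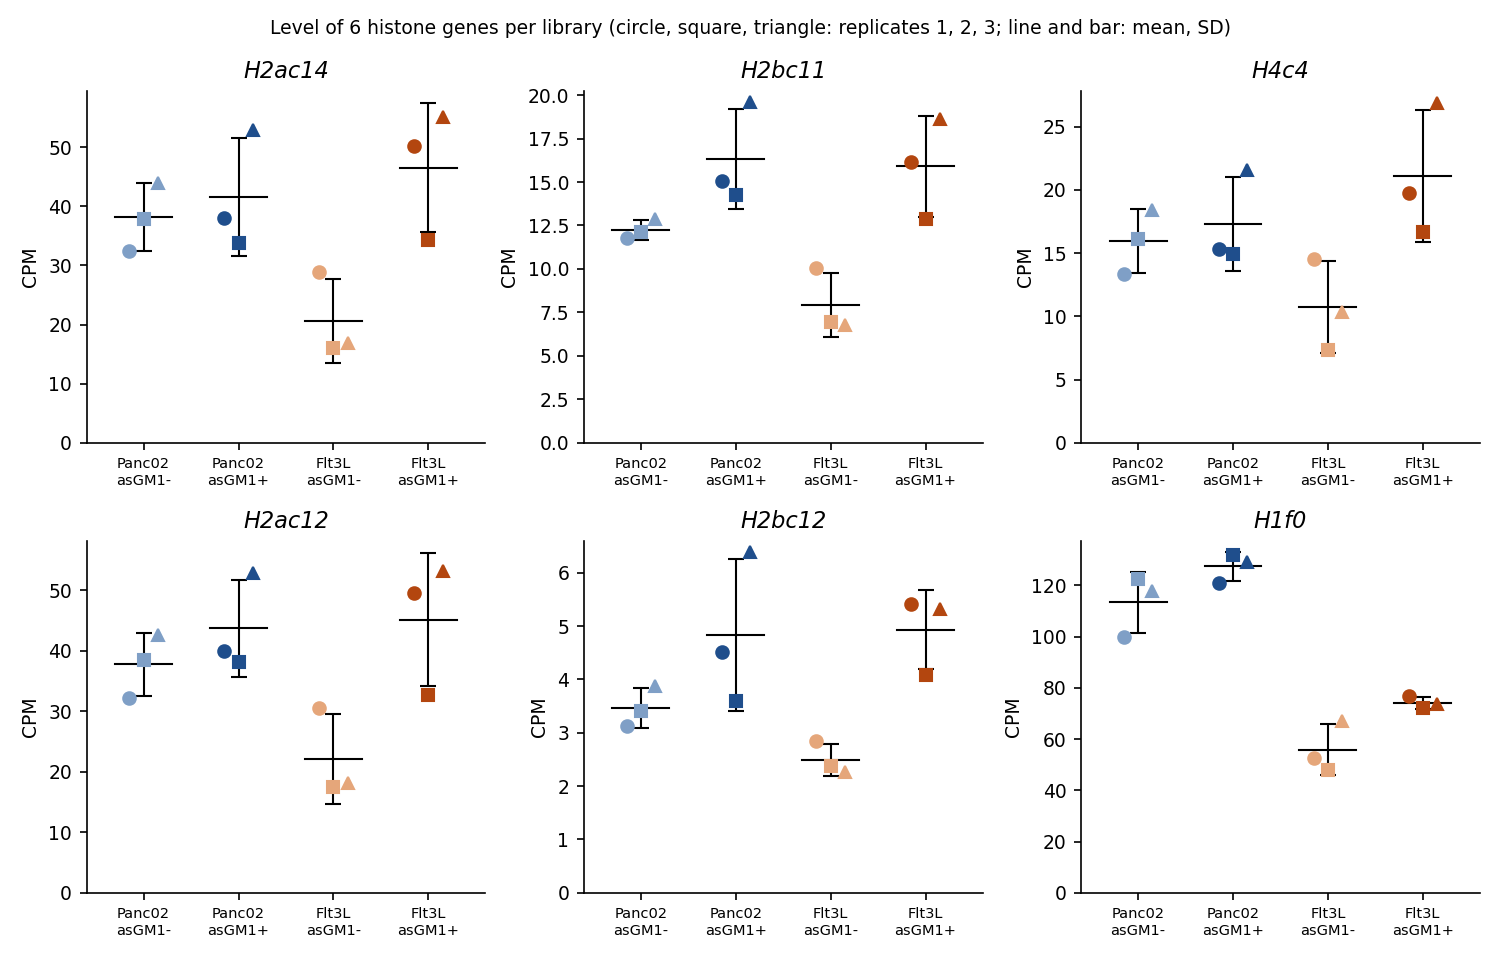
CPM per library of 6 histone genes, 1 symbol per library with group means and SD (n = 3). For the first 5 genes all asGM1-positive libraries of Flt3L Panc02 tumours lie above all asGM1-negative ones, and H1f0 lies lower in both Flt3L Panc02 groups than in both Panc02 groups.

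Among H3 genes, H3c10 had the highest called fold change. It stood at 1.07, 0.647 and 0.519 CPM in asGM1-negative cells, against 1.66, 1.35 and 2.17 CPM in asGM1-positive cells (log2 fold change 1.21 ± 0.32, edgeR adjusted p = 0.0388), which did not overlap. H3c1, H3c3 and H3c6, the H3 genes with the highest CPM, were at 0.74 ± 0.30, 0.87 ± 0.28 and 0.65 ± 0.24 and were not called (adjusted p = 0.157, 0.0818 and 0.116). The H4 genes H4c9 and H4c18 were at 0.31 ± 0.23 and 0.38 ± 0.32 (adjusted p = 0.434 and 0.501). H3c10 and H4c3 were chosen after their values were seen.

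None of the 8 H1 genes tested was called in that comparison. H1f2 and H1f4, which encode linker histones of the cluster, were at 0.59 ± 0.23 and 0.65 ± 0.26 (edgeR adjusted p = 0.136 and 0.142). H1f2 did not overlap between the gates, with 26.6, 23.3 and 24.8 CPM against 32.1, 39.6 and 40.9 CPM. H1f8, the oocyte linker histone, had a mean under the floor in asGM1-negative cells of Flt3L Panc02 tumours, so its levels are given with no fold: 0.0962, 0 and 0.123 CPM there, and 0.363, 0.428 and 0.277 CPM in asGM1-positive cells. H1f10, a linker histone gene outside the clusters, lay between 0.183 and 1.0 CPM in all 12 libraries with overlap in every comparison. In the opposite direction to most, H2bc21, one of the genes with a poly(A) signal and no stem-loop, was at -0.53 ± 0.28 (adjusted p = 0.26) and was chosen after its value was seen.

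The number of called histone genes in this comparison depended on single libraries. Without asGM1-negative replicate 1 of Flt3L Panc02 it was 26 (3.82% of all genes were called higher in that run). Without replicate 2 it was 0 (0.832% of all genes called higher), and without replicate 3 it was 2 (1.3%). Without asGM1-positive replicates 1, 2 and 3 it was 1, 18 and 1, against 1.5%, 1.48% and 1.48% of all genes. In all of these runs no member was called lower. DESeq2 called 28 members higher, or 44.4% of them, against 6.43% of all genes it tested. With limma-voom it was 29, or 46%, against 5.7%. Scaling by library totals alone left 6, or 9.52%, against 0.96%. That scaling moved the median log2 fold change of all genes to -0.21, and 57 of 63 members were then above 0.

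Markers of other cells moved with the gate. The summed pDC markers given above were higher in every asGM1-negative library of Flt3L Panc02 tumours (1085 to 1205 CPM) than in every asGM1-positive one (305.1 to 330.2 CPM). The 8 T cell markers were lower there (9684 to 11160 against 12450 to 15850 CPM), and 2 of the 8 were called higher in asGM1-positive cells. The 8 markers of conventional dendritic cells summed to 108.1 to 119 CPM against 16.85 to 25.91 CPM. Erythroid markers had the largest ratio of the 9 marker lists and were higher in asGM1-positive cells, the direction of the histone genes. Their summed level was 0.111 to 0.7084 CPM in asGM1-negative cells, against 13.18 to 31.34 CPM in asGM1-positive cells of Flt3L Panc02 tumours. The 4 globin genes Hba-a1, Hba-a2, Hbb-bs and Hbb-bt were called higher, and Alas2 was not. In Panc02 tumours the erythroid sums were 3.358 to 12.66 against 13.16 to 19.92 CPM, and none of the genes was called. Of 12 macrophage and monocyte markers 1 was higher and 1 lower in the Flt3L Panc02 gate comparison, 1 of 3 tested B cell markers was lower, and none of the neutrophil, fibroblast or tumour epithelial markers was called. The part of these cells in the histone values was not tested. Replicate 1 of the asGM1-negative cells, the highest of its group for histones, was also highest for markers of pDC (1205 CPM), T cells and macrophages. The same held for B cell, neutrophil and tumour epithelial markers. It lay between the others of its group for conventional dendritic cell and erythroid markers and was lowest for fibroblast markers (6.069 CPM).

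In Panc02 tumours the same comparison gave 0 of 63 histone genes called by edgeR, 0 by DESeq2 and 0 by limma-voom. Of all genes 0.892% were called by edgeR, 3.25% by DESeq2 and 4.07% by limma-voom. An unadjusted p under 0.05 was reached by 1 member, the H2B gene H2bc4, against 9.99% of all genes. H2bc4 stood at 14.7, 14.8 and 17.5 CPM in asGM1-negative cells, against 25.7, 19.3 and 19.2 CPM in asGM1-positive cells (log2 fold change 0.45 ± 0.18, edgeR adjusted p = 0.395). Its libraries did not overlap. The median log2 fold change of the members was 0.21, against 0.02 over all genes, and 50 of 63 were above 0 (53.3% of all genes). In 4 members all asGM1-positive libraries were higher (6.35%, against 8.67% of all genes).

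Whether the gates differed more in one tumour type than in the other was tested by the interaction. None of the 63 histone genes was called by edgeR, 0 by DESeq2 and 5 by limma-voom, all 5 with the larger rise in Flt3L Panc02 tumours. Over all genes edgeR called 0.367%, DESeq2 4.4% and limma-voom 3.85%. At an unadjusted p under 0.05 edgeR had 9 members, 14.3% of them, against 14.8% of all genes. The median interaction of the members was 0.52 on the log2 scale (0.78 for H2A), against -0.02 for all genes, and 59 of 63 were above 0 (48.4% of all genes). The larger gate effect in Flt3L Panc02 was therefore not shown gene by gene. H2ac14 had an interaction of 1.05 (edgeR adjusted p = 0.218), and H2bc11 of 0.59 (adjusted p = 0.348).

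Between tumour types, the comparison asked how cells of Flt3L Panc02 tumours differed from those of Panc02 tumours within each gate. It uses the same Flt3L Panc02 asGM1-negative libraries as the gate comparison above, so their values are given side by side and not as separate support. In asGM1-negative cells 1 of 63 histone genes was lower in Flt3L Panc02 than in Panc02 tumours and 0 higher (edgeR), against 1.84% of all genes lower and 1.86% higher. The members' median log2 fold change was -0.51, against 0.00 over all genes, and 8 of 63 were above 0 (50.1% of all genes). In 21 members all Flt3L Panc02 libraries were lower (33.3%, against 12.9% of all genes), and 21 had an unadjusted p under 0.05 (20.3% of all genes). DESeq2 called 11 lower (17.5%, against 6.05% of all genes) and limma-voom 24 (38.1%, against 8.32%). Without Flt3L Panc02 asGM1-negative replicate 1, edgeR called 14 lower (22.2%, against 2.45% of all genes in that run). The log2 ratio of the summed histone levels was -0.71, or -1.0 without that replicate. Marker sums moved with this comparison too, with erythroid markers at 3.358 to 12.66 CPM in Panc02 and 0.111 to 0.7084 CPM in Flt3L Panc02 tumours and pDC markers at 470.6 to 489.3 and 1085 to 1205 CPM, and their part was not tested.

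In asGM1-positive cells the sums hardly differed between tumour types, with a log2 ratio of -0.03 and group means of 952.5 ± 167 and 930.7 ± 189 CPM. edgeR called 1 of 63 members lower and 0 higher, against 4.2% and 2.05% of all genes. The median was 0.06, and 42 of 63 were above 0 (46.9% of all genes), or 27 of 63 with a median of -0.08 where library totals alone scaled the data and the median of all genes moved to -0.16. By type the log2 ratio of sums was 0.31 for H4, 0.24 for H3, 0.06 for H2A, -0.27 for H2B and -0.40 for H1. The H1 ratio became 0.12 without H1f0 and H1f10.

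The single member called between tumour types in either gate was H1f0, the gene of the replication-independent linker histone H1.0, which is known to accumulate in cells that have stopped dividing. In Panc02 tumours it stood at 99.9, 122 and 118 CPM in asGM1-negative cells, against 121, 132 and 129 CPM in asGM1-positive cells. In Flt3L Panc02 tumours it stood at 52.7, 48.1 and 67 CPM in asGM1-negative cells, against 76.7, 72.1 and 73.6 CPM in asGM1-positive cells. All 6 Flt3L Panc02 libraries lay below all 6 Panc02 libraries. The log2 fold change was -1.02 ± 0.13 in asGM1-negative cells (edgeR adjusted p = 0.00404) and -0.78 ± 0.13 in asGM1-positive cells (adjusted p = 0.00801). Both calls held in each run that left out 1 library, with adjusted p-values of at most 0.0302 and 0.0451. With only the 6 libraries of each comparison fitted, the asGM1-positive call ended (adjusted p = 0.0507) and the asGM1-negative one did not (0.0167).

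Between gates H1f0 was not called. In Flt3L Panc02 tumours its gates did not overlap, with a log2 fold change of 0.41 ± 0.12 (edgeR adjusted p = 0.0686), and it was called without asGM1-negative replicate 3 (adjusted p = 0.0216). In Panc02 tumours the value was 0.17 ± 0.12 (adjusted p = 0.764). H2bc4 was placed between tumour types much as H1f0 was, at -0.61 ± 0.18 in asGM1-negative cells, against -0.60 ± 0.18 in asGM1-positive cells. It did not overlap in either gate and was not called (adjusted p = 0.0794 and 0.0666), except without Flt3L Panc02 asGM1-negative replicate 1 (adjusted p = 0.0222). With the tumour type moved the summed level of 6 tumour epithelial markers. It was 31.44 to 105.1 CPM in the 6 Panc02 libraries and 15.26 to 20.31 CPM in the 6 Flt3L Panc02 libraries. The markers did not all fall: of 4 tested, 2 were called lower and 1 higher in either gate (edgeR). Other marker lists had calls between tumour types too. Among them, 2 of 6 fibroblast markers were lower in either gate, and 4 of 8 T cell markers were higher in asGM1-positive cells. Of all genes 1.84% were lower in asGM1-negative cells, and 4.2% were lower and 2.05% higher in asGM1-positive cells. The part of any of these markers in the H1f0 difference was not tested.

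**Figure D5:**
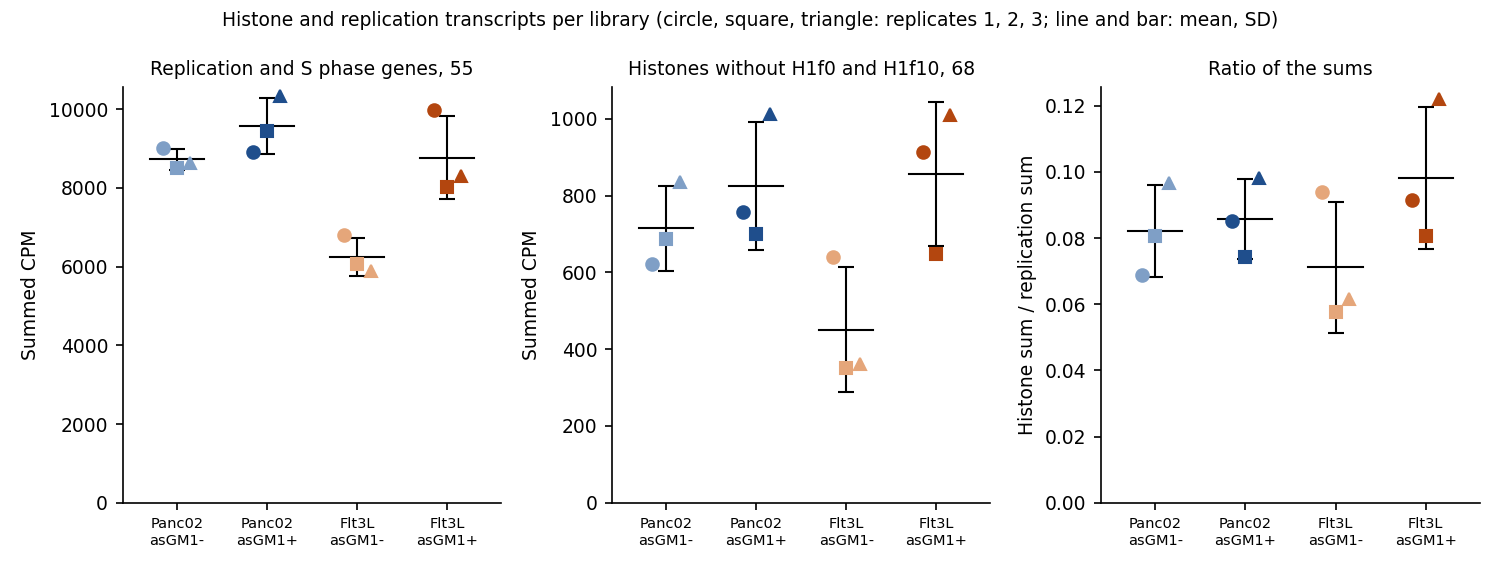
Summed CPM of 55 DNA replication and S phase genes (left) and of the 68 histone genes other than H1f0 and H1f10 (middle), and the ratio of the second to the first (right), 1 symbol per library with group means and SD (n = 3). Replication sums of asGM1-negative cells from Flt3L Panc02 tumours (5889 to 6802 CPM) lie below those of the other 3 groups, while the ratios overlap between all groups.

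The summed level of DNA replication genes was lowest in the same group as that of the histones. The 55 genes of the list summed to 6802, 6065 and 5889 CPM in asGM1-negative cells, against 9977, 8028 and 8291 CPM in asGM1-positive cells of Flt3L Panc02 tumours. The 2 Panc02 groups lay at 8512 to 9017 and 8909 to 10320 CPM. The asGM1-negative Flt3L Panc02 libraries were thus the lowest 3 of the 12. Histones other than H1f0 and H1f10, divided by the replication sum of the same library, gave 0.094, 0.0578 and 0.0616 in that group and 0.0915, 0.0806 and 0.122 in asGM1-positive cells. The ratios of Panc02 libraries were 0.0689, 0.0807 and 0.0968, and 0.0852, 0.0742 and 0.0983. They overlapped between all groups, and asGM1-negative replicate 1 of Flt3L Panc02 had the highest ratio of its group.

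In the Flt3L Panc02 gate comparison 18 of the 55 replication genes were higher in asGM1-positive cells and 0 lower (edgeR; the share of all genes called higher is given above), with a median log2 fold change of 0.44. Mcm5, a subunit of the replicative helicase, rose from 417.8 ± 23.9 to 666.2 ± 77.4 CPM (0.67 ± 0.12, adjusted p = 0.00515). Fen1, which trims the ends of lagging-strand fragments, rose by 0.66 ± 0.12 (adjusted p = 0.00642). Pcna, the sliding clamp, was at 0.30 ± 0.17 and Mcm2 at 0.48 ± 0.15, and neither was called (adjusted p = 0.293 and 0.08). Of 25 mitosis genes 12 were higher and 0 lower (median 0.58; 2.77% of all genes were higher), among them Bub1 (0.78 ± 0.11), Plk1 (0.71 ± 0.11) and Ccnb1 (0.70 ± 0.10), with adjusted p-values of at most 0.0031. The proliferation marker Mki67 was at 0.02 ± 0.14 (adjusted p = 0.952).

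The genes that make histone messengers were measured with 25 members, and none was called in any of the 4 comparisons or in the interaction. Of all genes edgeR called 0.892 to 8.59% in the 4 comparisons and 0.367% in the interaction. For a list of 25 genes a count of 0 is near these shares. Slbp, the stem-loop binding protein, stood at 169.3 ± 26.5 CPM in asGM1-negative cells, against 196.6 ± 28.4 CPM in asGM1-positive cells of Flt3L Panc02 tumours (log2 fold change 0.22 ± 0.13, edgeR adjusted p = 0.334). Npat, the coactivator of histone gene transcription, was at 16.8 ± 1.44 and 16.82 ± 3.2 CPM (adjusted p = 0.998). Casp8ap2, a partner of NPAT in the histone locus body, was at -0.17 ± 0.18 (adjusted p = 0.621).

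The list of histone chaperones and the acetyltransferase of new histones held 30 genes. In asGM1-positive cells of Flt3L Panc02 tumours 4 of them stood at a higher level and 2 at a lower level. Of all genes tested 2.77% were called higher and 5.83% lower. All 3 subunits of CAF-1, which deposits new H3 and H4 behind the replication fork, were higher. Chaf1a and Chaf1b are also on the list of replication genes, so their calls were counted in both lists. Chaf1b stood at 82.11, 65.81 and 71.84 CPM in asGM1-negative cells, against 121.9, 100.2 and 119 CPM in asGM1-positive cells, without overlap (0.63 ± 0.11, adjusted p = 0.00489). Chaf1a was at 0.56 ± 0.12 (adjusted p = 0.0157) and Rbbp4 at 0.48 ± 0.10 (adjusted p = 0.0137). The Chaf1a call ended without asGM1-negative replicate 3 or asGM1-positive replicate 1 (adjusted p of at most 0.0573), and the Rbbp4 call without asGM1-negative replicate 2 (0.0583). The share called lower was thus near that of all genes. Ubn2, a subunit of the HIRA complex, stood at 31.07, 33.49 and 27.29 CPM in asGM1-negative cells, against 18.76, 18.04 and 13.96 CPM in asGM1-positive cells, without overlap (-0.86 ± 0.15, adjusted p = 0.00536). Atrx, a chromatin remodeller that acts with DAXX, was at -0.55 ± 0.14 (adjusted p = 0.029), and its call ended without asGM1-negative replicate 1 or 2 or asGM1-positive replicate 3 (at most 0.0882). Other genes of the same complexes on the list were not called, with Hira at 0.32 ± 0.16, Ubn1 at -0.14 ± 0.11, Cabin1 at -0.17 ± 0.15 and Daxx at -0.02 ± 0.11 (adjusted p = 0.245, 0.447, 0.518 and 0.952). These 4 were added after their values were seen.

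Replication-independent variant histones had a median log2 fold change of 0.08 between these gates, with a range of -0.77 to 0.81. Of 12 such genes 1 was called higher (2.77% of all genes) and 0 lower, namely H2ax, whose protein is phosphorylated at DNA breaks. It rose from 87.2 ± 11.8 to 130.7 ± 9.23 CPM (log2 fold change 0.58 ± 0.12, edgeR adjusted p = 0.0112). The messenger of H2ax is known to exist in both a stem-loop and a polyadenylated form. The H3.3 genes H3f3a and H3f3b were at -0.16 ± 0.20 and 0.08 ± 0.10 (adjusted p = 0.659 and 0.671), and H2az1, for the variant H2A.Z, at 0.49 ± 0.19 (adjusted p = 0.136). In Panc02 tumours none of the genes of these 5 lists was called between the gates by edgeR.

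Between tumour types, asGM1-negative cells of Flt3L Panc02 had 13 of 55 replication genes lower and 0 higher, and 14 of 25 mitosis genes lower and 0 higher, against 1.84% of all genes lower. Fen1 was at -0.71 ± 0.12, Uhrf1, which carries DNA methylation through replication, at -0.71 ± 0.12, and Bub1 at -1.03 ± 0.11 (edgeR adjusted p = 0.0114, 0.0142 and 0.00254). The Fen1 call ended without Panc02 asGM1-negative replicate 2 or Flt3L Panc02 asGM1-negative replicate 2 (adjusted p of at most 0.057), and the Uhrf1 call without the latter (0.0579). In asGM1-positive cells 0 of 55 replication genes were called by edgeR, and 6 of 25 mitosis genes were lower (4.2% of all genes). Of these, Cenpf, a kinetochore protein, was at -0.84 ± 0.12 (adjusted p = 0.00579).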

How the data were processed

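The authors deposited 1 table of estimated counts per gene (also called expected counts), made with HISAT2 and StringTie on mm39 per the submitters' processing notes, with 56980 genes by 12 libraries and whole numbers throughout. No version, annotation or strand setting is given in the sources used here. Small values came in steps of about 2.71 counts (2.67 to 2.75), taken as 1 fragment. Depth floors cover counting error only.

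The quasi-likelihood test of edgeR 4.0.16 (R 4.3.3) was run with TMM factors (0.877 to 1.1), filterByExpr by group, 1 fit of 4 group means over 12 libraries, and Benjamini-Hochberg adjustment over 20411 genes, called under 0.05. Sums are of TMM-scaled CPM and carry no test. The model was tested on simulated data. Alternatives used DESeq2 1.42.0, limma 3.58.1, other scalings and filters, the compared libraries alone, a replicate block and leaving out libraries.

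The histone members, gene lists and tests were chosen with earlier results of these data known. Named were the 3 members with the highest mean CPM per type, up to 6 called members per direction and comparison by p, H1f0 and H1f10. For each list up to 3 called genes per direction were named, with a panel of 9 genes. Some of them are summarised by counts. Sequences came from RefSeq promoter tables and GENCODE transcripts on GRCm38, joined by gene symbol or identifier, and no coordinate of the deposited table was used.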

Additional observations from a re-analysis of the deposited data

How the results depend on the processing

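The count of histone genes called in the Flt3L Panc02 gate comparison (16) was 7 with upper quartile factors (2.09% of all genes higher). It was 6 with library totals alone (0.96%), 4 with no filter on low counts (1.14%) and 3 in a fit to the compared libraries alone (1.04%). By the DESeq2 test it was 28 (6.43%) and by limma-voom with quality weights 29 (5.7%). It was 8 without both Panc02 libraries numbered 1 (2.22%), a run chosen after seeing the data, and 17 with DESeq2 size factors (2.96%). Leaving out 1 library gave 0 to 26 (0.832 to 3.82%). Between tumour types in asGM1-negative cells the count (1) was 11 by DESeq2 (6.05% of all genes lower) and 24 by limma-voom (8.32%). It was 1 to 14 with 1 library left out (0.24 to 2.45%). In asGM1-positive cells the count (1) was 2 with library totals alone (5.62% of all genes were called lower). It was also 2 with the filter of 5 CPM in 3 libraries (6.66%), by DESeq2 (9%) and by limma-voom (8.59%). In the fit to the compared libraries alone it was 0 (0%), and H1f0 had an edgeR adjusted p of 0.0507. Every run that left out 1 library gave 1 (0.695 to 5.83%). The interaction count (0) was 5 by limma-voom (3.85% of all genes) and 0 in all 12 runs that left out 1 library. The Panc02 gate count was 0 under every setting (0.443 to 4.07% of all genes). The summed H1 level had log2 ratios of 0.32 (gates of Flt3L Panc02) and -0.53 (tumour types, asGM1-positive) with library totals alone. Between tumour types it was -0.42 (asGM1-negative) and 0.12 (asGM1-positive) without its most abundant gene, and -0.42 and 0.12 without H1f0 and H1f10, so that the sign in asGM1-positive cells rests on H1f0. Other causes of these moves were not tested.

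Whether the replicate numbers pair the samples is not known: the labels do not say what a number shares, and not every same-number correlation was over 0.1, so the numbers were not used as pairs. Deviations of same-numbered gates correlated across genes by 0.284, 0.0952 and 0.166 in Panc02 and 0.054, 0.104 and 0.0224 in Flt3L Panc02. Every Panc02 library correlated best with its own number. So did every Flt3L Panc02 library except asGM1-positive replicate 3 (0.0224, against 0.0512 with asGM1-negative replicate 1). With the replicate number as a block 24 members were called in the Flt3L Panc02 gate comparison and 0 between tumour types in asGM1-negative cells, where H1f0 had an adjusted p of 0.08.

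With 1 library left out, the log2 ratio of all histones between gates ran from 0.05 to 0.32 in Panc02 and from 0.73 to 1.17 in Flt3L Panc02, and between tumour types from -1.0 to -0.56 (asGM1-negative) and from -0.16 to 0.12 (asGM1-positive).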

Other observations

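H2ac5-ps, an H2A row left out by the rule because its name ends in -ps, was counted at 1.19 to 3.65 CPM and passed the filter on low counts. Its log2 fold change between the gates of Flt3L Panc02 tumours was 0.65 ± 0.30 (edgeR adjusted p = 0.206).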
